A study of Mus musculus with 2 samples.

Results

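The enzymes that attach ubiquitin to proteins and those that remove it were examined in normal and type 2 diabetic mouse liver. The set held 70 of the 8551 genes listed in the deposited table. Its members are the genes whose names begin with Uba, Ube, Usp, Uchl or Otu in the form used for the enzyme families, except Usp2, which was left out by the selection rule. They comprised 6 E1 enzymes, 20 E2 enzymes, 5 E3 and E4 ligases, 30 ubiquitin-specific proteases (USPs), 1 ubiquitin C-terminal hydrolase (UCH), 6 ovarian tumour domain (OTU) proteases and 2 genes, Ube2cbp and Usp6nl, that are neither the E2 enzyme nor the protease their names resemble. All 70 members were matched to RefSeq by gene identifier, and 1 of them, Ube2d2, has another current symbol (Ube2d2a).

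Ubiquitin is a small protein that cells join to other proteins, most often to mark them for the proteasome but also to change their location or their partners. An E1 enzyme activates ubiquitin, an E2 enzyme carries it, and an E3 ligase selects the protein that receives it, while deubiquitinases cut it off again or trim the chains. Related modifiers such as SUMO, NEDD8, UFM1 and ISG15 have E1 and E2 enzymes of their own, some of which are in the set. In liver, these enzymes act in endoplasmic reticulum quality control, in the turnover of metabolic enzymes and receptors and in the control of histones.

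The normal library was made from liver of male C57BL/6 wild type mice and the diabetic library from liver of male db/db mice. These carry a germ-line mutation of the leptin receptor and become obese and diabetic, and the labels give their strain background as C57BL/6 too. All mice were 9 weeks old, had free access to chow and were killed about 3 h after lights on. The study used several mice per group, and whether their RNA was pooled is not given in the sources used here. Poly(A) RNA was copied into cDNA, cut with DpnII at GATC and sequenced as digital gene expression tags, with 1 library per group. No replicate check of any difference was therefore possible. The normal library held 10278531 clean tags and the diabetic library 13508232, of which 37.1% and 44.4% fell on the listed genes. Each value is the number of tags of a gene scaled to the depth of its library in clean tags (RPM), which the study calls TPM. They are not divided by transcript length, so they are compared here between libraries and not between genes. In bulk liver, fewer cells of a type and less RNA per cell cannot be told apart.

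Because every read of this assay starts at a DpnII site, the sequence that could be counted for each transcript is short. The tags below begin at the site nearest to the 3′ end of the main GENCODE transcript of the members that the results turn on. They are given as the 20 bases from the site on the transcript strand, with the site in capitals, and are read from the reference, not from the libraries. Which site of a gene the authors counted is not given in the sources used here. The first group belongs to the 4 E1 and E2 enzymes with the lowest FDR and to 2 members of the Ube2d family that were not called.
Uba3: GATCcaagctccattgtacc
Ube2l6: GATCaacggcgcttgtcata
Ube2m: GATCtgtcctgatgaaggct
Ube2u: GATCtcatctttctggaagc
Ube2d1: GATCtgactgtagccttttc
Ube2d3: GATCatgctgtgttcgtgat
The second group belongs to the proteases.
Uchl5: GATCttaaaactgaatttta
Usp3: GATCctgacacccgccctcc
Usp12: GATCtgaggaagacattttg
Usp22: GATCtttgcagtagattcct
Usp25: GATCtatttttgaatttata
Usp45: GATCacaataaatattagat
In GRCm38, the tag of Uba3 lies on the minus strand at chr6:97191196-97191215, in coding sequence. That of Ube2m lies in coding sequence on the minus strand of chromosome 7, between 13036469 and 13036581, and spans an exon junction. All the others lie in a 3′ UTR: Ube2l6 at chr2:84810086-84810105, Ube2u at chr4:100550099-100550118, Ube2d3 at chr3:135467956-135467975, Uchl5 at chr1:143807181-143807200, Usp25 at chr16:77116712-77116731 and Usp45 at chr4:21837772-21837791, all on the plus strand, and Ube2d1 at chr10:71255009-71255028, Usp3 at chr9:66514695-66514714, Usp12 at chr5:146735594-146735613 and Usp22 at chr11:61153668-61153687, all on the minus strand. Each of the 70 members has a usable site, in the 3′ UTR for 54 and in coding sequence for 15, with the site of Ube2c running across the stop codon. The tag of Ube2m is also the last tag of the predicted gene Gm6227, so its reads cannot be assigned to 1 of them by this sequence. No other member shares its tag with a transcript of another gene.

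A gene was called upregulated or downregulated in the diabetic library if it differed at least 1.5-fold and had a false discovery rate (FDR) under 0.001, the criteria of the study. Reads of a gene in both libraries were compared by an exact binomial test (two-sided), with FDR adjusted over all listed genes, and such a test compares these libraries and not the conditions. By this rule, 16 of the 70 members were upregulated, or 22.9%, and the share among all 8551 listed genes was 22.9% as well. Only 3 members were downregulated, or 4.29%, against 8.19% of the listed genes. The remaining 51 members were not called. The median log2 ratio of diabetic over normal was 0.31 over the members and 0.25 over all listed genes. As a whole, the set therefore followed the background of the table, and the differences lay in single enzymes.

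**Figure D1:**
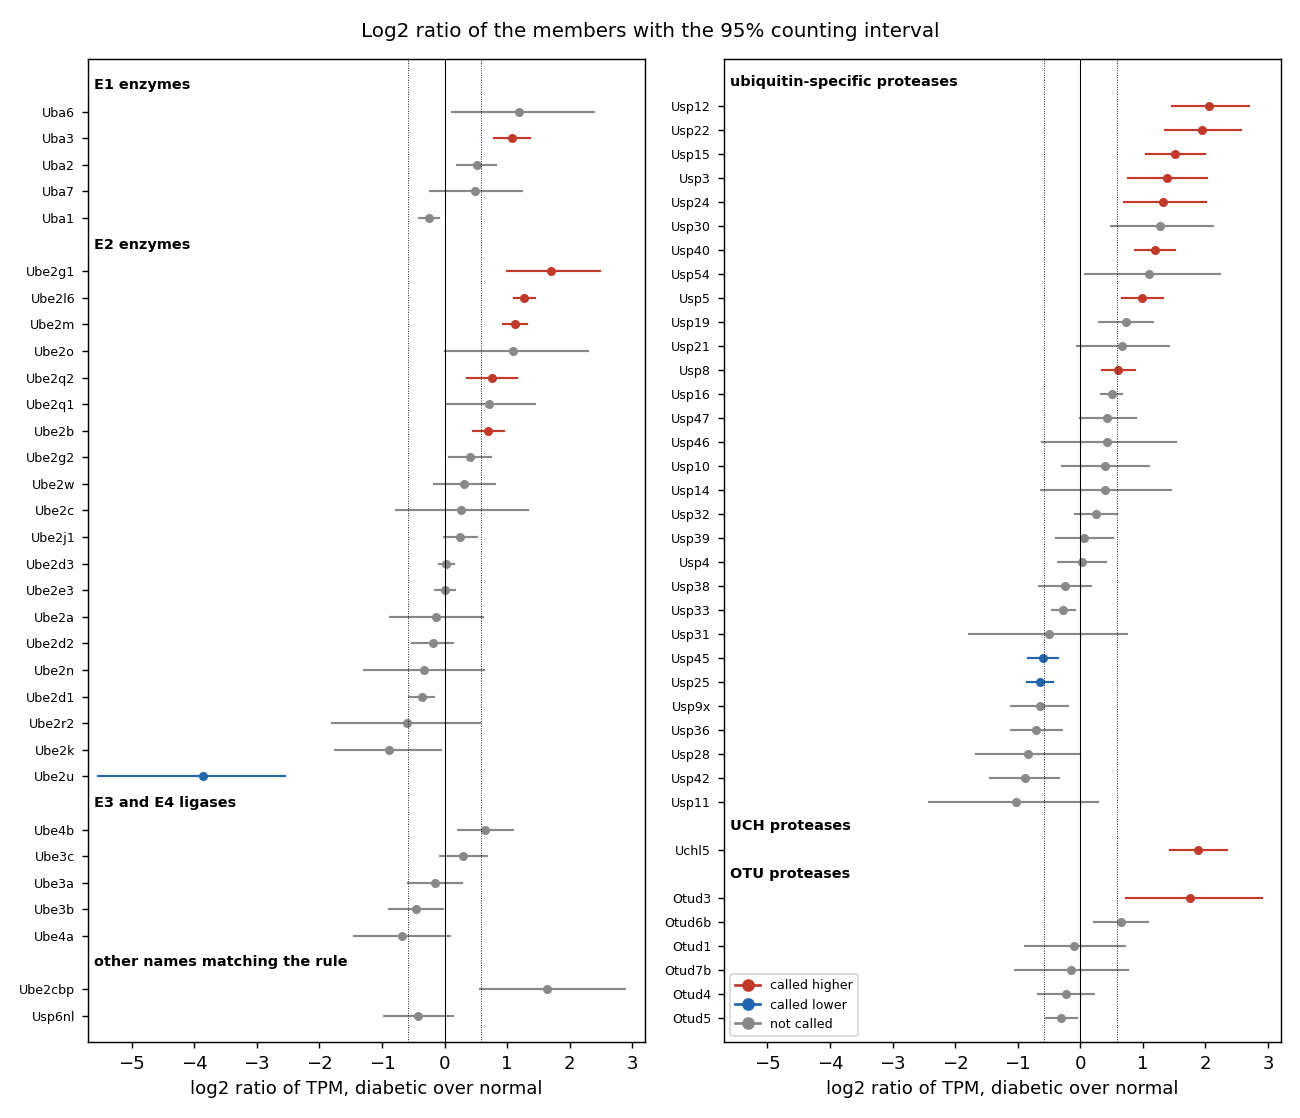
Log2 ratio of TPM, diabetic over normal, for the members by family (1 uncalled E1 enzyme is not shown), with points for the ratio, bars for the 95% counting interval and dotted lines at a fold of 1.5. The 16 upregulated members (red) are spread over E1, E2, USP, UCH and OTU enzymes, and Ube2u, at -3.85, lies far below the other 2 downregulated members (blue), Usp25 and Usp45.

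Of the E1 enzymes, Uba3 was the 1 of 6 that was called, as upregulated, or 16.7% against 22.9% of all listed genes. Uba3, the catalytic subunit of the enzyme that activates NEDD8, had 13.1 TPM (135 reads) in the normal and 27.8 TPM (375 reads) in the diabetic library. The difference was 1.08 as a log2 ratio (95% counting interval 0.79 to 1.37, exact test FDR = 4.0e-14). Uba1, the main activating enzyme for ubiquitin itself and the E1 with the most reads, had 62.9 TPM and 52.9 TPM, a log2 ratio of -0.25 (-0.41 to -0.09) that stayed under the fold threshold. The second ubiquitin E1, Uba6, had 0.97 TPM (10 reads) and 2.22 TPM (30 reads), and a fold this large at so few reads did not reach the FDR threshold (FDR = 0.045). Uba2, which activates SUMO, had 12.9 and 18.5 TPM (log2 ratio 0.52, FDR = 0.002). Uba7, which activates ISG15, had 2.53 and 3.55 TPM (log2 ratio 0.49, FDR = 0.27). The NEDD8 E1 was thus 2.11-fold higher in the diabetic library, while the main ubiquitin E1 had a ratio under 0, and their counting intervals did not overlap. The call of Uba3 was kept under the 4 other scalings but lost relative to genes whose DpnII site lies at a like distance from the transcript end.

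Among the 20 E2 enzymes, 5 were upregulated and 1 was downregulated, or 25% and 5%, against 22.9% and 8.19% of all listed genes. The median log2 ratio of the family was 0.26, but -0.005, -0.051 and -0.014 when libraries were scaled to the listed genes, by median ratio and by upper quartile, and 0.002 with TMM, so its sign depended on the scaling. The 5 upregulated E2 enzymes serve different modifiers and pathways. Ube2l6, the interferon-inducible carrier of ISG15, had 39.1 TPM (402 reads) in the normal and 94.7 TPM (1279 reads) in the diabetic library. This difference had the lowest FDR of the set, at a log2 ratio of 1.28 (1.11 to 1.44, exact test FDR = 7.7e-60). Ube2m, which carries NEDD8 to cullins, had 29.9 TPM (307 reads) and 64.9 TPM (877 reads), a log2 ratio of 1.12 (0.93 to 1.31, exact test FDR = 8.0e-34). The high value was that of the diabetic library for both, by more than 2-fold, but the tag of Ube2m is shared with Gm6227.

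The other 3 upregulated E2 enzymes carry ubiquitin. Ube2g1, which builds chains on substrates of cullin ligases, had 1.95 TPM (20 reads) and 6.37 TPM (86 reads), a log2 ratio of 1.71 (1.00 to 2.49). Ube2b, a RAD6 homologue that ubiquitinates histone H2B, had 18.8 TPM (193 reads) and 30.6 TPM (413 reads), a log2 ratio of 0.70 (0.45 to 0.96). Ube2q2 had 7.78 TPM (80 reads) and 13.1 TPM (177 reads), a log2 ratio of 0.75 (0.36 to 1.15). The calls of Ube2b and Ube2q2 were lost under all 4 other scalings of the libraries, and those of all 3 relative to genes of like site position.

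Ube2u, a little-studied E2 enzyme, was the member with the largest difference in either direction. It had 5.35 TPM (55 reads) in the normal library and 0.37 TPM (5 reads) in the diabetic library. The log2 ratio was -3.85 (-5.53 to -2.54, exact test FDR = 3.4e-14), a 14.5-fold lower value with a counting interval that spans several-fold. It was the only member downregulated by more than 2-fold.

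The general-purpose E2 enzymes of the Ube2d and Ube2e groups were not called. Ube2d3, which works with many RING ligases and was the E2 with the most reads, had 102 TPM (1051 reads) and 104 TPM (1411 reads), a log2 ratio of 0.03 (-0.09 to 0.15). Its relatives Ube2d1 and Ube2d2 had log2 ratios of -0.36 (-0.56 to -0.17) and -0.19 (-0.51 to 0.14). Ube2e3 had 51.9 and 52.2 TPM, a log2 ratio of 0.01 (-0.16 to 0.17). For Ube2d3 and Ube2e3 the intervals exclude a fold of 1.5 either way, while under each of the 4 other scalings their ratios were between -0.22 and -0.30. Ube2d1 had an FDR of 7.7e-04 and a fold of 1.29, so it failed on the fold alone. Under the 4 other scalings, at -0.62 to -0.67, it was called downregulated. Relative to genes of like site position its ratio was -0.30 and it was not called. Ube2n, which makes lysine-63 chains, had 1.95 TPM (20 reads) and 1.55 TPM (21 reads), and a difference of 1.5-fold was not detectable at this depth.

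Of the 3 listed E2 enzymes grouped here as linked to the endoplasmic reticulum, Ube2g1, described above, was upregulated and the others were not called. Ube2g2, which acts in endoplasmic reticulum quality control, had 11.7 and 15.5 TPM (log2 ratio 0.41, exact test FDR = 0.028), and Ube2j1, which is anchored in the membrane, had 19.3 and 22.9 TPM (log2 ratio 0.25, FDR = 0.098). The ratio of Ube2j1 was between -0.004 and -0.058 under the 4 other scalings. The remaining uncalled E2 enzymes, Ube2a, Ube2c, Ube2k, Ube2o, Ube2q1, Ube2r2 and Ube2w, had log2 ratios from -0.89 (Ube2k) to 1.09 (Ube2o).

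No E3 or E4 ligase of the set was called. Ube3c, a HECT ligase that works at the proteasome and had the most reads of the 5, had 9.53 TPM (98 reads) and 11.7 TPM (158 reads), a log2 ratio of 0.30 (-0.08 to 0.67). Ube3a, the HECT ligase affected in Angelman syndrome, had a log2 ratio of -0.15 (-0.58 to 0.28) and Ube3b one of -0.46 (-0.89 to -0.03). The U-box enzymes that lengthen ubiquitin chains pointed in opposite directions, with log2 ratios of 0.65 (0.22 to 1.09) for Ube4b and -0.68 (-1.45 to 0.09) for Ube4a, neither of which passed the FDR threshold (FDR = 0.0048 and 0.12). The summed reads of the 5 ligases gave a log2 ratio of 0.05 (-0.14 to 0.25).

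**Figure D2:**
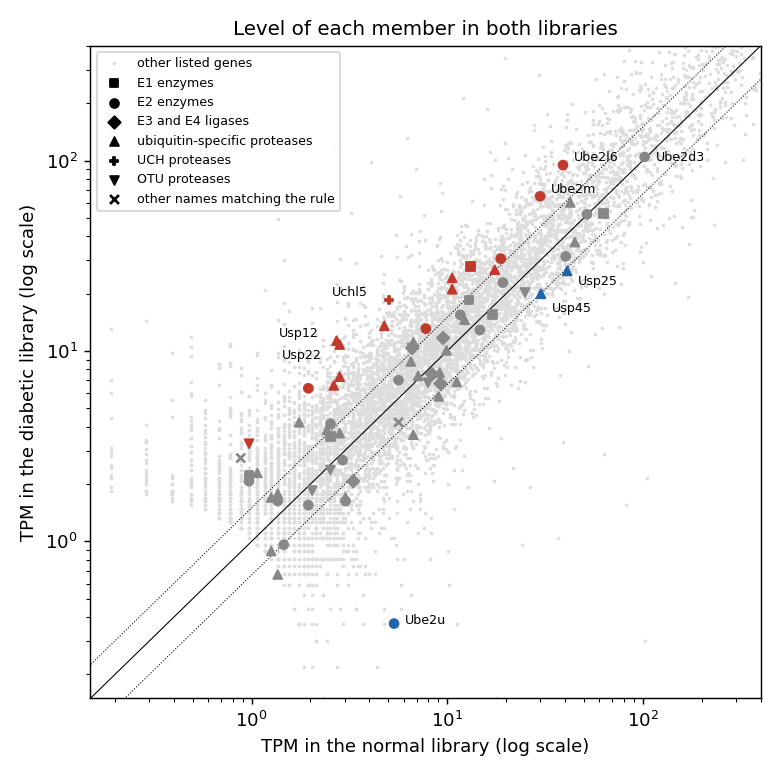
TPM of each member in the normal library (x axis) and in the diabetic library (y axis), both on log scales, over all other listed genes (grey dots), with symbols for the family, red and blue for upregulated and downregulated members, a solid line at equal values and dotted lines at a fold of 1.5. Ube2l6 and Ube2m stand above the upper dotted line at levels where few reads are not a limit, Ube2d3 lies on the line of equal values, and Ube2u falls far below it.

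Of the 30 ubiquitin-specific proteases, 8 were upregulated and 2 downregulated, or 26.7% and 6.67% of the family. Over all listed genes these shares were close, at 22.9% and 8.19%. The median log2 ratio was 0.41, and 0.11 to 0.16 under the other scalings. The largest differences were those of Usp12 and Usp22. Usp12, which is active only in complex with WD40 repeat proteins, had 2.72 TPM (28 reads) in the normal and 11.3 TPM (153 reads) in the diabetic library, with a log2 ratio of 2.06 (1.47 to 2.69, exact test FDR = 1.2e-14). Usp22, the histone H2B deubiquitinase of the SAGA coactivator, had 2.82 TPM (29 reads) and 10.8 TPM (146 reads), a log2 ratio of 1.94 (1.36 to 2.57, exact test FDR = 6.0e-13). Both were close to 4-fold higher (4.17-fold and 3.83-fold) from a low level in the normal library.

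A group of 6 proteases with histone substrates was formed here, of which 4 were members of the set. It is not a full list of the deubiquitinases that act on histones. Of these 4, 2 were upregulated, against 22.9% of all listed genes. All 4 had ratios above 0, as had 5284 of the 8551 listed genes, but that of Usp16 was -0.06 relative to genes of like site position. Usp3, a histone H2A deubiquitinase, had 2.82 TPM (29 reads) and 7.33 TPM (99 reads), a log2 ratio of 1.38 (0.77 to 2.03), and was upregulated like Usp22. Usp16, another H2A deubiquitinase and the USP with the most reads, had 42.6 TPM (438 reads) and 60.3 TPM (814 reads), a log2 ratio of 0.50 (0.33 to 0.67) that passed the FDR threshold (FDR = 1.5e-08) but not the fold threshold. Usp21 had 2.43 and 3.85 TPM (log2 ratio 0.66, exact test FDR = 0.11). Usp44 and Usp49 were not analysed here.

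The other upregulated members of the family were Usp40, Usp5, Usp8, Usp15 and Usp24. Usp40 had 10.6 TPM (109 reads) and 24.2 TPM (327 reads), a log2 ratio of 1.19 (0.87 to 1.52). Usp5, which takes apart free ubiquitin chains, also had 10.6 TPM (109 reads) in the normal library, and 21.1 TPM (285 reads) in the diabetic library, which gave a log2 ratio of 0.99 (0.67 to 1.32). Usp8, which acts on receptors at endosomes, had 17.5 TPM (180 reads) and 26.7 TPM (361 reads), a log2 ratio of 0.61 (0.35 to 0.88). The diabetic value was the higher one for all 3, with Usp8 just past the fold threshold. Usp15, which acts in TGF-beta signalling, had 4.77 TPM (49 reads) and 13.6 TPM (183 reads), a log2 ratio of 1.51 (1.05 to 1.99). Usp24 had 2.63 TPM (27 reads) and 6.59 TPM (89 reads), a log2 ratio of 1.33 (0.69 to 2.01). Usp8 and Usp24 were not called under any of the 4 other scalings, and log2(TPM + 1) also ended the call of Usp8.

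Both downregulated USPs were only just past the fold threshold, in contrast to Ube2u. Usp25 had 41.1 TPM (422 reads) in the normal library and 26.4 TPM (356 reads) in the diabetic library, with a log2 ratio of -0.64 (-0.85 to -0.43, exact test FDR = 3.3e-09). Usp45, which acts on a DNA repair nuclease, had 30.2 TPM (310 reads) and 19.99 TPM (270 reads), a log2 ratio of -0.59 (-0.83 to -0.35, exact test FDR = 3.2e-06). A fold threshold of 2 removed both calls and log2(TPM + 1) that of Usp45, while the 4 other scalings kept them. Both were lost relative to genes of like site position. Uncalled USPs just outside the criteria for lower values included Usp36, a nucleolar protease (11.2 and 6.88 TPM, log2 ratio -0.70, FDR = 0.0015), Usp42 (6.71 and 3.63 TPM, log2 ratio -0.89, FDR = 0.0026) and Usp9x (9.05 and 5.77 TPM, log2 ratio -0.65, FDR = 0.0091). These 3 passed the fold threshold but not the FDR threshold, and all 3 were called downregulated under the 4 other scalings. Their sites lie 41, 94 and 40 bases from the transcript end, and relative to genes of like site position none of the 3 was called. Usp11 and Usp28 also passed the fold threshold alone (log2 ratios -1.02 and -0.83), and Usp31, Usp33 and Usp38 had ratios from -0.50 to -0.25.

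Close relatives within the USP family had unlike ratios in some cases. Usp15, Usp4 and Usp11 are paralogues, and their log2 ratios were 1.51, 0.02 (-0.36 to 0.41) and -1.02 (-2.42 to 0.28). The ratio of Usp4 was under 0 under the 4 other scalings. The interval of Usp15 did not overlap with either of the others. Usp12 and its paralogue Usp46 had ratios of 2.06 and 0.43 (-0.61 to 1.53), with overlapping intervals at the 13 and 23 reads of Usp46. Usp25 and Usp28, in contrast, both had ratios under 0, at -0.64 and -0.83 (-1.67 to 0.00). Differences between genes were not tested.

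Uchl5 was the only UCH protease that the rule selected, and it was upregulated. It is 1 of the deubiquitinases bound to the proteasome and also sits in the INO80 chromatin remodeller. It had 5.06 TPM (52 reads) in the normal library and 18.6 TPM (251 reads) in the diabetic library, and its log2 ratio was 1.88 (1.44 to 2.34, exact test FDR = 5.2e-21). Usp14, the other proteasome-bound protease of the set, had 1.36 TPM (14 reads) and 1.78 TPM (24 reads), a log2 ratio of 0.39 (-0.63 to 1.45). The libraries thus differed 3.67-fold for Uchl5, while the interval of Usp14 includes equal levels and, at its few reads, reaches that of Uchl5.

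The OTU proteases held 1 upregulated member of 6, or 16.7% against 22.9% of all listed genes. Otud3 had 0.97 TPM (10 reads) and 3.26 TPM (44 reads), a log2 ratio of 1.75 (0.73 to 2.90, exact test FDR = 4.7e-04), and it lost its call under the 4 other scalings. Otud5, which acts in immune signalling and had the most reads, had 25 TPM (257 reads) and 20.3 TPM (274 reads), a log2 ratio of -0.30 (-0.55 to -0.05). Otud6b had a log2 ratio of 0.65 (0.22 to 1.09) and was not called (FDR = 0.0048). Otud1, Otud4 and Otud7b had ratios from -0.23 to -0.09. The summed reads of the family gave a log2 ratio of -0.01 (-0.18 to 0.17).

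Ube2cbp and Usp6nl were not called. Ube2cbp, which encodes a ligase that binds an E2 enzyme and was kept apart from the named E3 and E4 genes, had 0.88 TPM (9 reads) and 2.74 TPM (37 reads), with a log2 ratio of 1.64 (exact test FDR = 0.0023). Usp6nl, which encodes a GTPase-activating protein for Rab proteins and no protease, had 5.64 and 4.22 TPM, with a log2 ratio of -0.42.

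The exact test is made on reads, so at a like fold members with more reads pass the FDR threshold more readily by construction. Of the 70 members, 26 were at least 1.5-fold higher and 11 at least 1.5-fold lower, or 37.1% and 15.7%. Over the listed genes these shares were close, at 34.4% and 15.3%. Of these 37 members, 18 were not called, with a median of 68.5 reads over both libraries against 303 for the called members. Among them was Usp30, a protease of the outer mitochondrial membrane that opposes mitophagy, with 1.75 TPM (18 reads) and 4.22 TPM (57 reads), a log2 ratio of 1.27 (0.48 to 2.12, exact test FDR = 0.0017). Usp19, which has a form anchored in the endoplasmic reticulum, was also close to the threshold (6.71 and 11.1 TPM, log2 ratio 0.73, FDR = 0.0012). Members had between 9 and 1051 reads in the normal library and between 5 and 1411 in the diabetic library, and 13 had under 20 reads in at least 1 of them.

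Viewed by modifier, both listed members that handle NEDD8 alone, Uba3 and Ube2m, were upregulated, of which Ube2m alone was still called relative to genes of like site position. The tag of Ube2m is shared with Gm6227, so its reads cannot be assigned to Ube2m alone. Ube2f was not analysed here. Cops5, the subunit of the COP9 signalosome that removes NEDD8 from cullins and no member of the set, had 20.4 TPM (210 reads) and 79.8 TPM (1078 reads), a log2 ratio of 1.97. Cops6, of the same complex, had 105 and 134 TPM (log2 ratio 0.35) and was not called. For genes outside the set, single values relative to genes of like site position are not given here. The SUMO E1 subunits gave smaller ratios, at 0.52 for Uba2 and 0.20 for its partner Sae1. Of the SUMO proteases, Senp5 (37.8 and 21.5 TPM, log2 ratio -0.81) and Senp7 (5.55 and 2.44 TPM, log2 ratio -1.19) were downregulated. Senp2 (-0.17) and Senp6 (0.51) were not called. For UFM1, the E2 enzyme Ufc1 was upregulated (29.5 and 62.9 TPM, log2 ratio 1.09) and the protease Ufsp2 was downregulated (16.8 and 7.48 TPM, log2 ratio -1.17). For ISG15, Ube2l6 was upregulated and Uba7 was not called. Over all listed genes, 22.9% were upregulated and 8.19% downregulated, with a median log2 ratio of 0.25. Of 13 listed interferon response genes, 0 were upregulated and 7 downregulated, with a median log2 ratio of -0.77. Among them, Ifit3 had 110 and 24.7 TPM and Rsad2 61.7 and 13.3 TPM. Ube2l6 therefore had the opposite direction to the called genes of that list.

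**Figure D3:**
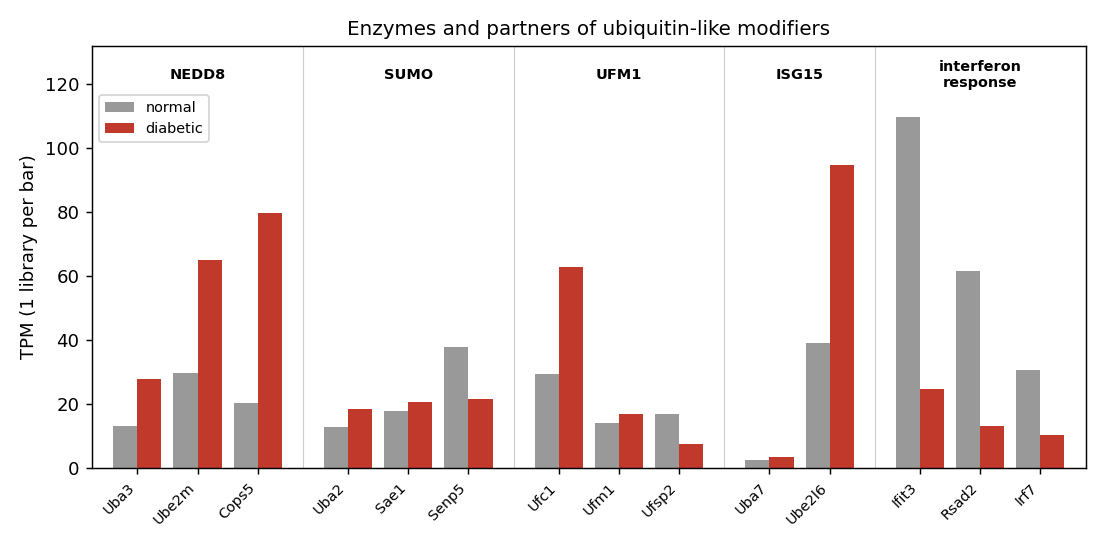
TPM in the normal (grey) and diabetic (red) library, with 1 library per bar and an axis from 0, for enzymes and partners of 4 ubiquitin-like modifiers and for 3 interferon response genes. Uba3, Ube2m and Cops5 of the NEDD8 group and Ube2l6 of the ISG15 group are higher in the diabetic library, whereas Ifit3, Rsad2 and Irf7 are lower. The tag of Ube2m is shared with Gm6227.

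The log2 ratios of the members moved with the place of the DpnII site in the transcript. The site nearest to the 3′ end lay between 40 and 1968 bases from it, with a median of 404 bases. For the 14 members with a site under 100 bases from the end the median log2 ratio was -0.62, and for the 16 members with a site at 800 bases or more it was 1.09. The classes between them had medians of 0.10 (from 100 to under 200 bases, 4 members), 0.02 (from 200 to under 400 bases, 16 members) and 0.55 (from 400 to under 800 bases, 20 members). All 3 downregulated members, Ube2u, Usp25 and Usp45, had a site under 100 bases from the end, and 13 of the 16 upregulated members had 1 at 400 bases or more. The same held in part for all listed genes. Of those with a site under 100 bases, 12.9% were upregulated and 16.2% downregulated. With a site at 400 to under 800 bases, these shares were 26.3% and 5.26%, and at 800 bases or more 33.0% and 3.29%. The exceptions were Ube2l6 (91 bases), Usp3 (78 bases) and Uchl5 (125 bases), which were upregulated with a site close to the end.

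Over the 8081 listed genes with such a site, the class medians were -0.07, 0.05, 0.24, 0.38 and 0.56 from the nearest to the farthest sites, a steady order that the members kept except between the second and the third class. Spearman's rho of the ratio with the distance was 0.23 across these genes and 0.57 across the members. The genes share both libraries, so these values describe the libraries and carry no test. With transcript length, rho was -0.15 and -0.12. The cDNA was primed with random hexamers after selection of poly(A) RNA, per the labels, and the part of RNA length or cDNA length in the members' ratios was not tested. When the median of all listed genes in the same distance class was subtracted from each ratio, which also takes out the overall difference in scale, 9 members were upregulated and 3 downregulated, against 14.2% and 12.4% of the listed genes. Upregulated were Ube2l6, Ube2m, Uchl5, Usp3, Usp5, Usp12, Usp15, Usp22 and Usp40. Downregulated were Ube2u, Usp33 and Ube3b, of which only Ube2u had been so before. Relative to its class, Ube2l6 had a log2 ratio of 1.34, Uchl5 1.82, Usp12 1.497, Usp22 1.38 and Ube2m 0.74. The calls of Uba3 (0.52), Ube2b (0.32), Ube2g1 (1.15), Ube2q2 (0.37), Otud3 (1.19), Usp8 (0.23) and Usp24 (0.76) were lost, as were those of Usp25 (-0.58) and Usp45 (-0.53). This comparison and its classes were chosen after the data were seen.

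**Figure D4:**
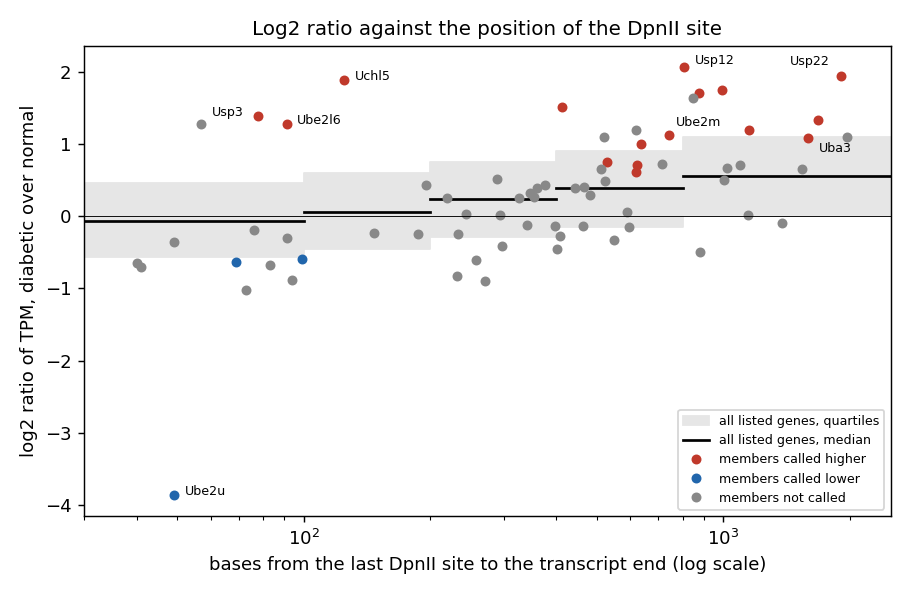
Log2 ratio of each member (points) against the distance in bases from its last DpnII site to the transcript end, on a log axis, with black lines for the median and grey bands for the quartiles of all listed genes in 5 distance classes. The medians of all listed genes go from -0.07 to 0.56 with distance, and Ube2l6, Usp3 and Uchl5 stand above the band of their class.

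Other genes of the pathway gave the following counts, each as upregulated and downregulated genes of those listed. Of all 8551 listed genes, 22.9% were upregulated and 8.19% downregulated, and no list was tested against these shares. Ubiquitin-like modifiers had 3 and 0 of 5 (Urm1, Ubl5 and Atg12), and other E1 and E2 subunits had 3 and 0 of 7 (Ufc1, Atg7 and Atg10). Other deubiquitinases and modifier proteases had 5 and 3 of 21, with Cops5 the largest increase. The HECT ligases had 0 and 2 of 13. Cullin-RING ligase subunits had 3 and 0 of 18, namely Skp1a, the adaptor of SCF ligases (103 and 253 TPM, log2 ratio 1.30), Tceb2 and Cul4a. RING, U-box and RBR ligases had 4 and 1 of 26, and p97 and its ubiquitin receptors 4 and 0 of 14. Proliferation genes had 0 and 0 of 4. The 4 genes that encode ubiquitin were not analysed here.

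The tissue was checked by its markers. Alb, encoding albumin, had 6801 and 6912 TPM, and 6 of 7 hepatocyte markers were listed, of which 1 was upregulated and 2 were downregulated. Of 9 listed macrophage markers, 8 had ratios under 0, with 4 downregulated and 1 upregulated, and their sum was 331 TPM in the normal and 196 TPM in the diabetic library. The sums for the others were 152 and 132.3 TPM for 10 endothelial markers, 122 and 165 TPM for 8 stellate cell markers and 67.1 and 111 TPM for 4 cholangiocyte markers. Few markers of lymphocytes and red cells were listed (1 of 9 for T and NK cells, 2 of 5 for B cells and 1 of 8 for erythroid cells). The part of these cells in the members' ratios was not tested.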

How the data were processed

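Liver RNA of normal and db/db mice was measured in 1 digital gene expression library per group, and groups were taken from the sample titles. The authors isolated poly(A) RNA, made cDNA, cut it with DpnII, removed adaptors from the reads, compared clean tags with RefSeq and counted them per gene. The deposited values, called TPM by the authors, are RPM values, that is tags of a gene scaled to the clean tags of the library, with 0.01 in place of 0 and genes with a mean under 1 left out. The submitters' processing notes name the build mm9, and the aligner is not given in the sources used here. No column of values per sample was left unused (0).

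Values were converted to whole reads by their steps, 0.0973 TPM per read in the normal and 0.0740 in the diabetic library. This gave whole reads within 0.0055 TPM for 8513 of 8513 and 8536 of 8537 values above the placeholder. Fold changes were taken from the deposited values. Each gene was tested with an exact binomial test (two-sided) against the ratio of clean tags, and p-values were adjusted over 8551 genes by the Benjamini-Hochberg method. Intervals are 95% Clopper-Pearson intervals and cover counting error only, since no molecular identifiers were used and tags may be copies of 1 molecule. A value of 3 reads corresponds to 0.292 and 0.222 TPM, and no member (0) was at 3 reads or fewer. The script was tested on simulated reads.

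Members, gene lists and the families were chosen with earlier results of these data known. Values are given for called members, for the member with the most reads of each family, and for members that act on 1 modifier, at the proteasome or in the Ube2d, Ube2e, Ube2n, Ube2g and Ube2j groups. Other members are named with values after these were seen. From each other list, at most 3 called genes per direction are named, and partner genes of the modifiers and markers are added. Lists were described by counts and medians. Single values of some genes are not reported here, and these genes enter only counts, medians, sums and unlabelled points. DpnII sites were read from the GENCODE M21 transcripts (GRCm38), 1 coding transcript per gene (the APPRIS principal one, then the longest), and not from mm9, so no position was compared with the authors' build. Alternatives were 4 scalings (sum of listed genes, TMM with 30% and 5% trimmed, median ratio over genes of at least 10 TPM and upper quartile), log2(TPM + 1), only genes with a mean of 5 TPM or more, 2-fold as the threshold, the fold threshold alone and, added after the data were seen, the site distance. The software was matplotlib 3.10.9, pandas 2.3.3, scipy 1.17.1, numpy 2.4.6 and Python 3.11.15.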

Additional observations from a re-analysis of the deposited data

How the results depend on the processing

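The 4 other scalings lower every log2 ratio by 0.25 to 0.31. With scaling to the sum of the listed genes, TMM, median ratio and upper quartile, in this order, 11 members were upregulated under each, and 7, 7, 8 and 7 downregulated. The share of listed genes called higher was then 13.3% to 14.9% and of those called lower 13.4% to 14.8%. The median log2 ratio of the members was 0.047, 0.055, 0.001 and 0.039, that of the E2 enzymes -0.005, 0.002, -0.051 and -0.014, and that of the USPs 0.153, 0.160, 0.106 and 0.144. Under all 4, the same 11 members kept their call as higher, Otud3, Ube2b, Ube2q2, Usp24 and Usp8 lost it, and Ube2d1, Usp36, Usp42 and Usp9x were called lower, joined by Otud5 with median ratio. Among the 34 members followed gene by gene, ratios that changed sign were those of Ube2d3 (-0.229, -0.222, -0.275 and -0.238), Ube2e3 (-0.250, -0.243, -0.297 and -0.259), Ube2j1 (-0.012, -0.004, -0.058 and -0.020) and, with median ratio, Ube3c (-0.010). Of the other members, Usp4, Usp32 and Usp39 changed sign under all 4, and Ube2c with median ratio and upper quartile. Relative to genes of like site distance, an alternative chosen after the data were seen, 9 members were upregulated, against 14.2% of the listed genes. The medians were then 0.009, 0.014 and 0.056 for members, E2 enzymes and USPs. The signs of Ube2d3 (-0.210), Ube2e3 (-0.231), Ube3c (-0.088) and Usp16 (-0.061) changed, as did those of Usp4 and Usp39. Ube2d1, Usp36, Usp42, Usp9x and Otud5 were not called in this setting. The fold threshold alone gave 26 members higher and 11 lower, against 34.4% and 15.3% of the listed genes. A fold threshold of 2 gave 12 and 1 (without Ube2b, Ube2q2, Usp5, Usp8, Usp25 and Usp45), against 14.45% and 4.53%. A minimum mean of 5 TPM gave 14 and 2 of 43, against 30.4% and 10.6% of the listed genes that pass it. A pseudocount of 1 TPM gave 15 and 2 (without Usp8 and Usp45), against 22.45% and 8.05%, with a USP median of 0.278. Of 299 values for these 34 members under these alternatives, 240 kept their direction and side of the threshold. Part of this count was fixed by construction. A change of the threshold or of the minimum mean leaves each ratio as it was, and a pseudocount cannot change its sign. The 4 scalings shift all ratios by nearly the same amount, so they are not separate checks. With 1 library per group no library can be left out, and the variation between mice is unknown. No paired analysis was possible because each group has 1 library and the labels carry no replicate numbers.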

Other observations

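The 5 members on the X chromosome, Uba1, Ube2a, Otud5, Usp11 and Usp9x, all had log2 ratios under 0, from -1.02 to -0.13, and none was called (0). Over the 226 listed genes of the X chromosome, 146 had ratios above 0 and 80 under 0, with a median of 0.33. This group was chosen after its values were seen, and no test was made. Of the 5 sites, those of Otud5, Usp11 and Usp9x lay at 91, 73 and 40 bases from the transcript end, and those of Uba1 and Ube2a at 187 and 341.

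Among members with a mean of at least 10 TPM, 9 of 25 were upregulated and 2 downregulated, and of the 45 members under that mean 7 and 1. Over the listed genes the counts were 1270 and 420 of 3673 and 685 and 280 of 4878. The summed reads of the 70 members, 8986 and 14353, gave a log2 ratio of 0.28 (0.24 to 0.32), and those of the E2 enzymes, 3729 and 6362, one of 0.38 (0.32 to 0.44), to which Ube2l6 adds 402 and 1279 reads and Ube2m 307 and 877.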
